A study of Bos taurus with 12 samples.

Results

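The genes of prostaglandin synthesis, transport, breakdown and reception were followed in bovine expanded blastocysts of known sex. They were chosen by symbol as 10 genes, PLA2G4A, PTGS1, PTGS2, PTGES, PTGES2, PTGES3, SLCO2A1, ABCC4, HPGD and PTGER4. The table of read counts lists 9 of them among its 32637 genes. It lists no gene under the symbol ABCC4, an efflux pump of prostaglandins, and that gene was not analysed here. The RNA-seq libraries came from Bos taurus embryos produced in vitro, with 6 female and 5 male replicates. Each expanded blastocyst of Day 7 or Day 8 was bisected, one piece was sexed by PCR, and the remaining pieces of 2 embryos of the same sex were pooled into a replicate. A replicate is thus a pool, and each piece held both the inner cell mass and the trophectoderm. Both groups were fertilised with thawed semen of 2 bulls used in weekly rotation and grown in the same commercial media, and no treatment other than sex distinguished them. The day, week and bull of a pool are not in the sample labels, so that they cannot be told apart from the replicate.

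Prostaglandins are lipid signals made from arachidonic acid. Cytosolic phospholipase A2 (PLA2G4A) frees the fatty acid from membranes, the cyclooxygenases PTGS1 and PTGS2 turn it into prostaglandin H2, and the prostaglandin E synthases PTGES, PTGES2 and PTGES3 turn that into prostaglandin E2. SLCO2A1 carries prostaglandins into cells, HPGD oxidises them to inactive products, and PTGER4 is a receptor of prostaglandin E2. In ruminants the trophectoderm of the early conceptus is known for its PTGS2 and for the prostaglandins it releases before implantation.

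Counted reads ranged from 6664112 to 16162985 in the female and from 9942952 to 21392764 in the male libraries, and levels are given as CPM (counts divided by the library size in units of 1e6 reads) scaled with the TMM factors of edgeR. A count of 3, the limit that a count of 0 allows in one library, equals 0.145 to 0.413 CPM, which covers counting error only. Of the 9 listed genes, 7 had enough reads to be tested with edgeR's quasi-likelihood test, which compared males with females and took the library number (the first number in a library's name) as a block. Sex bias was called where the Benjamini-Hochberg adjusted p was under 0.1 and the fold change over 1.5, the thresholds of the study. PTGS1 and PTGER4 were too low for the test. Male replicate 5 stood apart from the other libraries, with the fewest genes counted (14937), a summed level of 9 trophectoderm markers of 35054 CPM against 8576 to 18150 CPM in the other males and 6589 to 19166 CPM in females, and a summed level of 11 cumulus markers of 630 CPM against 199.6 CPM or less elsewhere. KRT8 and LGALS3 made up 84.2% of the trophectoderm sum in this library and CYP11A1 94.3% of the cumulus sum. Of the 9 trophectoderm markers, 4 (CDX2, KRT8, KRT18 and DAB2) had their highest level there, while GATA2, GATA3, TFAP2A and TFAP2C lay within the female range. The 7 trophectoderm markers left without KRT8 and LGALS3 summed to 5545 CPM there, above the 1359 to 3520 CPM of the other libraries. The cumulus markers without CYP11A1 summed to 35.7 CPM there, within the 10.3 to 50.03 CPM of the other libraries. Markers of the blastocyst's own cells were present in every group, and their sums overlapped between the sexes, at 560 to 980 CPM in females and 792 to 1076 CPM in males for 6 listed inner cell mass genes, and at 228 to 621 CPM and 208 to 467 CPM for 7 hypoblast genes. Of the 11 cumulus markers, 5 had enough reads for the test, HAS2, CYP19A1, FSHR, CYP11A1 and STAR, and 0 were called. FSHR was at 58 to 359 counts and STAR at 31 to 394 counts. CYP19A1 was at 2 to 42 counts, with a log2 fold change of -1.67 ± 0.59 (SE; edgeR adjusted p = 0.241). HAS2, TNFAIP6 and PTX3 had their highest level in male replicate 2, at 6.45, 4.76 and 0.528 CPM (61, 45 and 5 counts). GREM1, AMH and FOXL2 had 3 counts or fewer in every library.

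Of the 7 tested genes, 0 were called sex-biased in the edgeR test, against 1.91% of all 12802 tested genes and 0.707% of the 12172 autosomal ones. All 9 listed genes are autosomal. At an unadjusted p under 0.05 there were 3 of them, PTGS2, HPGD and SLCO2A1, where 13.2% of all tested and 11.1% of the autosomal genes had such a p. DESeq2, again with the library number, called 2 of the 7, PTGS2 and HPGD, both lower in males, 4.77% of all genes and 2.9% of the autosomal ones. With no filter on low counts, edgeR called the same 2 genes out of the 9 listed ones, 3.11% of all genes and 2.13% of the autosomal ones. The median log2 fold change over the 7 was 0.19 and over all tested genes 0.01, with 4 of the 7 higher and 3 lower in males. These counts include HPGD, which passed the filter through its female libraries alone, and they are given as a description.

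**Figure D1:**
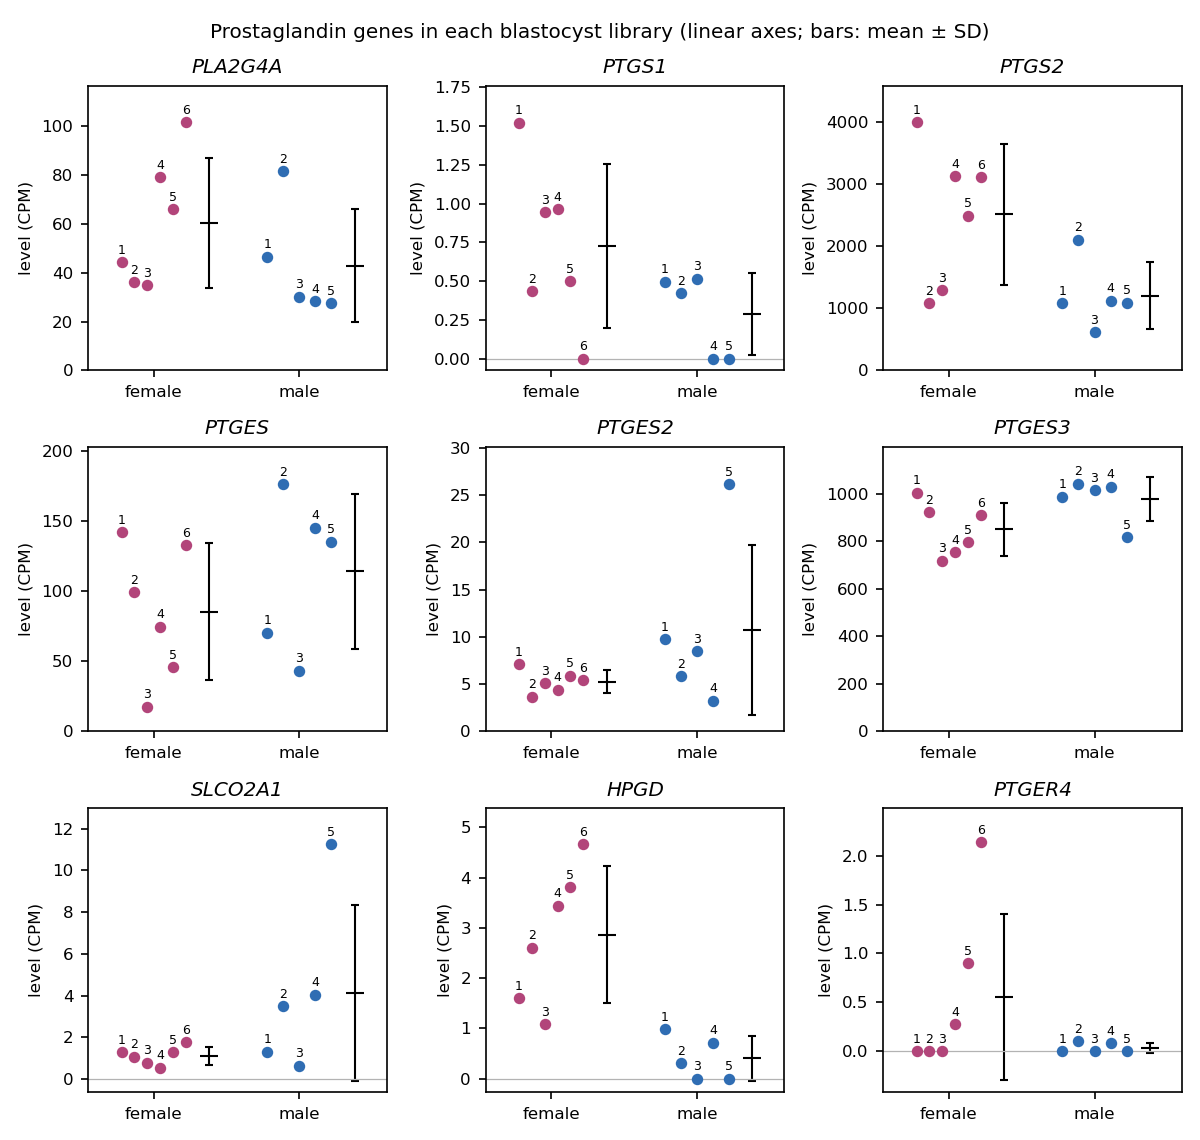
Level in CPM (linear axis, a separate scale for each panel) of the 9 listed prostaglandin genes in 6 female and 5 male pools. Each point is a library with its replicate number and the bars give mean ± SD. HPGD is the only panel in which all females (1.09 CPM or more) lie above all males (0.993 CPM or less), and SLCO2A1 and PTGES2 have their highest point in male replicate 5.

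PTGS2, the inducible cyclooxygenase, was counted at 9618 reads or more in every library, and 4 of 6 female pools were above all males. It lies on chromosome 16 at 67728006 to 67735629 (ARS-UCD2.0). Its lowest, median and highest female levels were 1077, 2798 and 3988 CPM, and the males had 1083, 2102, 619, 1123 and 1090 CPM in replicates 1 to 5. Female replicates 2 (1077 CPM) and 3 (1289 CPM) lay among the males, and male replicate 2 lay among the females, so the groups overlapped. The means were 2511 ± 1136 CPM (SD, n = 6) for females and 1204 ± 544 CPM (SD, n = 5) for males, or 2.09-fold. The log2 fold change of males against females was -1.20 ± 0.36 (SE; edgeR adjusted p = 0.166). DESeq2 with the library number gave -1.20 with an adjusted p of 0.018, under the threshold. Without female replicate 2, the lowest female, edgeR gave -1.47 and an adjusted p of 0.0482. Leaving out each of the other libraries in turn gave adjusted p values of 0.139 or more in the edgeR test. Its reads made up between 0.112% and 0.383% of all counted reads in females, and between 0.0592% and 0.20% in males.

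The library number was compared for PTGS2 as a possible batch, since the study used the collection week as a covariate and the labels give no week. Within number 1 the females averaged 2532 CPM and the males 1592 CPM, with the levels overlapping. Within number 2 the females averaged 2203 CPM and the single male had 619 CPM. Within number 3 they averaged 2798 and 1107 CPM and did not overlap. The female mean was thus above the male one within each number, by 1.59-fold, 3.56-fold and 2.53-fold.

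HPGD, the enzyme that begins prostaglandin breakdown, was read at low levels, and these did not overlap between the sexes. It lies on chromosome 8 at 6787672 to 6824508. The female libraries held from 15 to 74 counts, at 1.09 CPM in the lowest, 3.02 CPM in the median and 4.66 CPM in the highest. Male replicates 1 to 5 held 12, 3, 0, 9 and 0 counts, at 0.993, 0.317, 0, 0.715 and 0 CPM. Female replicate 3 was the lowest female and male replicate 1 the highest male, and 15 counts against 12 separated them. Every female library was above every male library, as in 1.88% of all tested and 0.723% of the autosomal genes. Because HPGD passed the filter on counts through its female libraries alone, this separation and the p-values that follow are given as a description. The means were 2.87 ± 1.36 CPM (SD, n = 6) and 0.405 ± 0.441 CPM (SD, n = 5), or 7.08-fold. Males against females gave a log2 fold change of -3.13 ± 0.95 (SE; edgeR adjusted p = 0.167), and DESeq2 with the library number gave -3.24 with an adjusted p of 0.00774.

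Few reads stand behind the male levels of HPGD. Male replicates 2, 3 and 5 had 3 counts or fewer, at or under the limit set by a count of 0. Without 1 library at a time, the log2 fold change lay between -3.81 and -2.61 and the adjusted p between 0.116 and 0.348, so that edgeR called it in 0 of 11 such fits. Within library number 1 the females averaged 2.10 CPM and the males 0.655 CPM, and within number 3 they averaged 4.23 and 0.358 CPM. Within number 2 the single male library had 0 counts and the females averaged 2.26 CPM. The female level exceeded the male level within each of the numbers, as it must where every female library is above every male one.

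**Figure D2:**
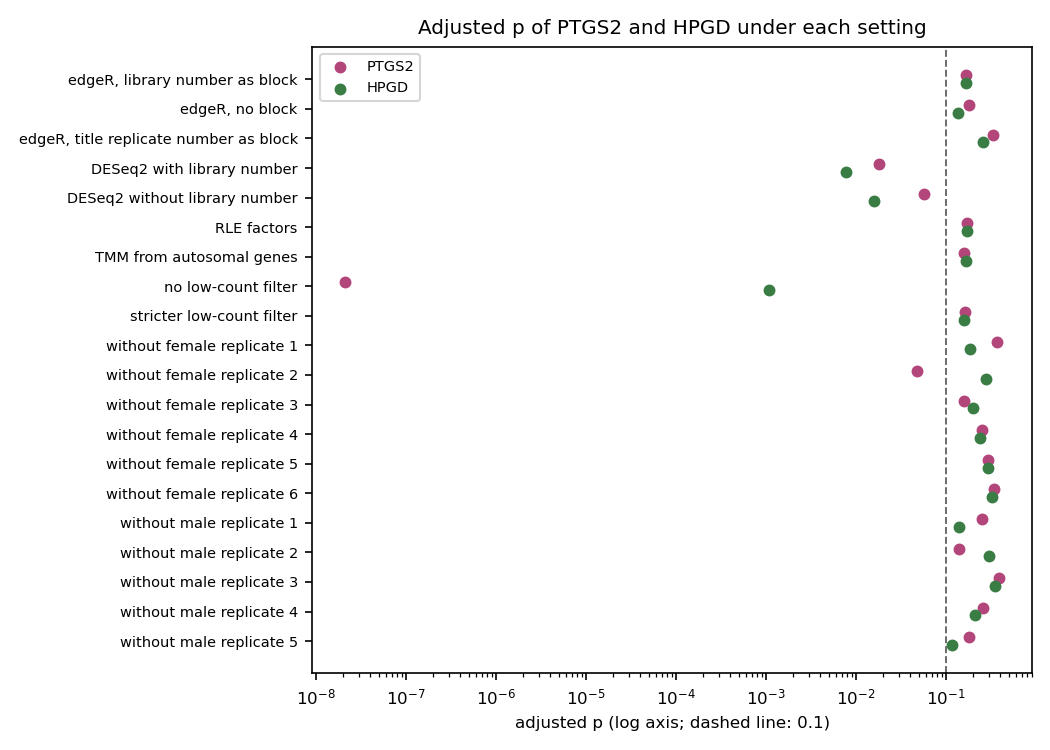
Adjusted p (log axis) of PTGS2 and HPGD for the sex difference under each setting of the test, with a dashed line at 0.1. Both genes lie to the right of the line in edgeR with the library number as a block (0.166 and 0.167) and to its left in DESeq2 with the library number (0.018 and 0.00774). HPGD passed the count filter through its female libraries alone, and its values are shown as a description.

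PLA2G4A, which supplies the substrate of the cyclooxygenases, lies beside PTGS2 on chromosome 16, at 67907024 to 68081280. The gap between the genes is 171394 bases and the annotation places 1 other gene in it, LOC132342424. The lowest, median and highest female levels of PLA2G4A were 35.0, 55.1 and 102 CPM, and male replicates 1 to 5 had 46.6, 81.7, 30.2, 28.4 and 27.6 CPM. Male replicates 3, 4 and 5 were below all females, and replicates 1 and 2 were among them. The means were 60.4 ± 26.8 CPM (SD, n = 6) and 42.9 ± 23.0 CPM (SD, n = 5), with a log2 fold change of -0.58 ± 0.39 (SE; edgeR adjusted p = 0.572) and of -0.37 without male replicate 5, the lowest library. The difference was within the spread between libraries. Male replicate 2 had the highest male level of PTGES (177 CPM) and PTGES3 (1043 CPM), which lie on other chromosomes. It also had the highest male level of both neighbours, at 2102 CPM of PTGS2 and 81.7 CPM of PLA2G4A. Their ratio within a library, which can be compared between libraries but not read as a ratio of molecules, was 29.8 to 90.0 in females against 20.5 to 39.6 in males, with female replicate 1 at 90.0 and the other females at 39.4 or less.

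PTGS1, the constitutive cyclooxygenase, was near the limit of detection. It lies on chromosome 11 at 93236344 to 93262105. Female libraries held from 0 to 20 counts and male replicates 1 to 5 held 6, 4, 8, 0 and 0. This was 0.728 ± 0.530 CPM (SD, n = 6) in females, with a median of 0.723 CPM and a highest value of 1.52 CPM in replicate 1, and 0.287 ± 0.264 CPM (SD, n = 5) for males. The groups overlapped and did not differ beyond their spread (exact permutation test, two-sided, over 462 groupings, p = 0.162, where the smallest possible p is 0.00216). Without female replicate 6, which held no PTGS1 read and was the lowest female, the same exact test gave p = 0.0476. Leaving out each of the other libraries in turn gave p values from 0.111 to 0.254 in that test.

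None of the 3 prostaglandin E synthases was called. PTGES, the microsomal synthase that is induced together with PTGS2 in many tissues, lies on chromosome 11 at 100121988 to 100133425. Its levels in females were 17.7 CPM at the lowest, 87.2 CPM at the median and 142 CPM at the highest. Male replicates 1 to 5 had 70.6, 177, 43.4, 146 and 136 CPM. The lowest library was female replicate 3 and the highest male replicate 2, and the groups overlapped over most of their range. The means were 85.6 ± 48.9 CPM (SD, n = 6) and 114 ± 55.3 CPM (SD, n = 5), with a log2 fold change of 0.24 ± 0.39 (SE; edgeR adjusted p = 0.849). Taken as a ratio within a library, PTGS2 to PTGES had a female median of 34.9 (10.8 to 72.7) and a male median of 11.9 (7.72 to 15.3). Female replicate 2 (10.8) was the only female within the male range.

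PTGES2, a second membrane-associated synthase, lies on the same chromosome at 98758686 to 98764051. In females its lowest, median and highest levels were 3.69, 5.25 and 7.08 CPM. In males they were 9.76, 5.81, 8.50, 3.26 and 26.1 CPM in replicates 1 to 5. Male replicate 4 was the lowest of all libraries and male replicate 5 the highest. Here the log2 fold change was 0.93 ± 0.45 (SE; edgeR adjusted p = 0.401) with all libraries and 0.29 without male replicate 5. That library also had the highest trophectoderm and cumulus marker sums, whose part in the PTGES2 level was not tested beyond correlations across the libraries.

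PTGES3, the cytosolic synthase that is also the p23 co-chaperone of HSP90, was the steadiest of the 9 genes. It lies on chromosome 5 at 56760813 to 56782195. Its lowest, median and highest female levels were 719, 854 and 1005 CPM, and male replicates 1 to 5 had 988, 1043, 1016, 1030 and 819 CPM. The coefficient of variation over libraries was 13.1% in females and 9.38% in males, where the median over all tested genes was 27.2% and 36.1%. Male replicate 5 was lower than the other males, and the groups overlapped. The log2 fold change was 0.19 ± 0.13 (SE; edgeR adjusted p = 0.569) and 0.25 without male replicate 5. The other 6 tested genes had coefficients of variation from 22.5% (PTGES2) to 57.1% (PTGES) in females and from 45.2% (PTGS2) to 109% (HPGD) in males.

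SLCO2A1, the prostaglandin uptake carrier, was at 28 counts or fewer in all females and at up to 232 in males. It lies on chromosome 1 at 135336890 to 135423994. The female libraries held 4 to 28 counts, with 0.550 CPM in the lowest, 1.19 CPM in the median and 1.76 CPM in the highest. Male replicates 1 to 5 held 16, 33, 10, 51 and 232 counts, at 1.32, 3.49, 0.644, 4.05 and 11.2 CPM. Male replicates 2, 4 and 5 were above every female, and male replicates 1 and 3 were among them. The means were 1.13 ± 0.425 CPM (SD, n = 6) and 4.15 ± 4.21 CPM (SD, n = 5). Males against females gave a log2 fold change of 1.31 ± 0.53 (SE; edgeR adjusted p = 0.305) and 0.87 without male replicate 5. Left without the library number, DESeq2 called SLCO2A1 higher in males, with a log2 fold change of 1.86 and an adjusted p of 0.0668. Male replicate 5 also had the highest trophectoderm and cumulus marker sums. Their part in the SLCO2A1 level was not tested beyond the correlations given under Other observations. Within library number 1 the females averaged 1.19 CPM and the males 2.41 CPM, and within number 3 they averaged 1.53 and 7.65 CPM. Within number 2 the females averaged 0.675 CPM and the single male had 0.644 CPM. In bulk libraries, fewer cells of a type and less RNA per cell cannot be told apart, and this holds for each difference given here.

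**Figure D3:**
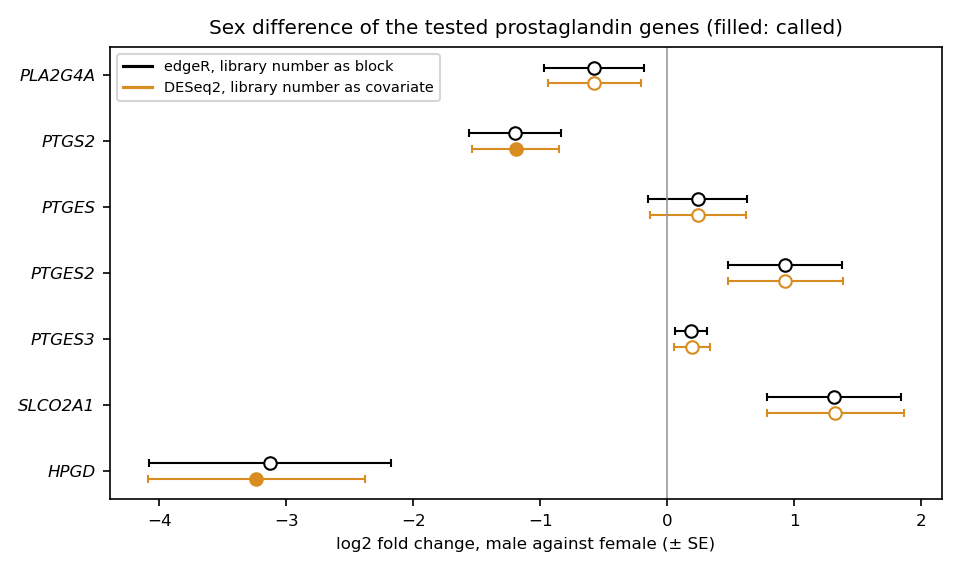
Log2 fold change of males against females (points, with bars of 1 standard error) for the 7 tested prostaglandin genes in edgeR (black) and DESeq2 (orange), both with the library number. Filled points were called sex-biased, and these are PTGS2 (-1.20) and HPGD (-3.24) in DESeq2 only. HPGD passed the count filter through its female libraries alone and is shown as a description.

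PTGER4, a receptor through which prostaglandin E2 raises cyclic AMP, had few or no reads in most libraries. It lies on chromosome 20 at 33747129 to 33760294. Female replicates 5 and 6, the females of library number 3, held 9 and 34 counts, at 0.901 and 2.14 CPM. The other 4 females held 0 to 2 counts and the males 0 or 1 count, all below the limit that a count of 0 allows. The males of library number 3 held 1 and 0 counts. The female mean of 0.553 ± 0.853 CPM (SD, n = 6) stood against a male mean of 0.0370 ± 0.0515 CPM (SD, n = 5), a difference within the spread of the libraries (exact permutation test, two-sided, p = 0.303). The level in females rests on these 2 pools.

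A further 52 genes of the pathway were listed by function, and 50 of them were in the table, 28 with enough reads for the test. edgeR called 1 of them, the X-linked ACSL4, which was lower in males. The background of 1.91% includes genes of the sex chromosomes, and over the autosomal genes alone it was 0.707%. None of the other tested genes of this list, all autosomal, was called. Of the 28, 15 were higher and 13 lower in males, and 0.04 was the median of their log2 fold changes. At an unadjusted p under 0.05 there were 6 of the 28, beside 13.2% of all tested and 11.1% of the autosomal genes. DESeq2 with the library number called 1 of the 28, the same gene, beside 4.77% of all and 2.9% of the autosomal genes. Of the 22 genes under the filter, 16 had no more than 10 counts in any library, and ALOX5AP, which hands arachidonic acid to 5-lipoxygenase, was at 0 in all.

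Among the genes that supply arachidonic acid, ACSL4, which binds it to coenzyme A, was the called one and the only X-linked gene of the 28. It lies on the X chromosome at 58032529 to 58110133. Its lowest, median and highest female levels were 379, 447 and 737 CPM, and male replicates 1 to 5 had 195, 260, 394, 228 and 192 CPM. Only male replicate 3 reached the female range. The log2 fold change was -0.90 ± 0.22 (SE; edgeR adjusted p = 0.0873), and the call held in 2 of 11 fits that each left out a library, those without female replicate 3 and without male replicate 3. Without male replicate 5, its lowest library, the log2 fold change was -0.76 and the edgeR adjusted p 0.110. FADS2, a desaturase on the route to arachidonic acid, was at 7.54 ± 2.84 CPM (SD, n = 6) for females and 14.9 ± 5.63 CPM (SD, n = 5) for males, with a log2 fold change of 0.97 ± 0.34 (SE; edgeR adjusted p = 0.242). Male replicate 5 was its highest library, at 22.9 CPM, and without it the log2 fold change was 0.67.

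None of the enzymes that release or divert arachidonic acid was called. PLA2G6, a calcium-independent phospholipase A2, had a log2 fold change of 0.97 ± 0.37 (SE; edgeR adjusted p = 0.281). MGLL, which hydrolyses monoacylglycerols such as 2-arachidonoylglycerol, had one of 0.91 ± 0.40 (SE; edgeR adjusted p = 0.351). Male replicate 5 was the highest of all libraries in both, at 9.79 CPM and 10.3 CPM, and without it the log2 fold changes were 0.83 for PLA2G6 and 0.58 for MGLL. LTA4H, which makes leukotriene B4 from leukotriene A4, was at 51.6 ± 7.28 CPM (SD, n = 6) in females against 36.5 ± 12.8 CPM (SD, n = 5) for males, with a log2 fold change of -0.52 ± 0.21 (SE; edgeR adjusted p = 0.321) and of -0.37 without male replicate 5, its lowest library.

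Of the 8 prostanoid receptor genes other than PTGER4, PTGFR, the receptor of prostaglandin F2 alpha, was the only one with enough reads for the test. Its female levels were 8.44 CPM at the lowest, 11.9 CPM at the median and 13.6 CPM at the highest, and male replicates 1 to 5 had 5.46, 7.50, 9.01, 8.10 and 6.93 CPM. Only male replicate 3 reached the female range. Males against females gave a log2 fold change of -0.62 ± 0.23 (SE; edgeR adjusted p = 0.269). The other terminal synthases with enough reads were AKR1B1, PTGIS, PRXL2B and CBR1, with log2 fold changes from -0.53 to 0.66. The reductases PTGR1 and PTGR2 had -0.09 and 0.16, and 4 other transporters ranged from -0.40 to 0.70. None of these reached an unadjusted p under 0.05.

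**Figure D4:**
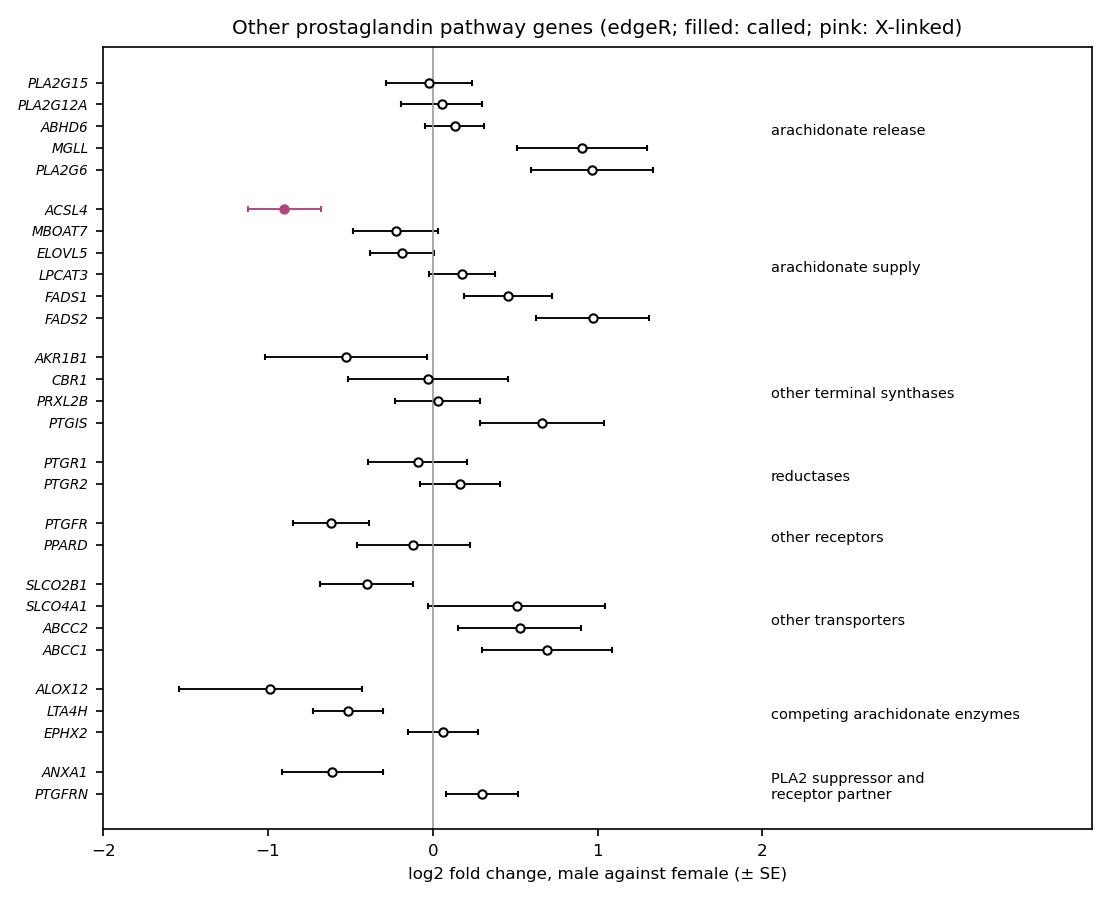
Log2 fold change of males against females with 1 standard error for the 28 tested genes of the wider prostaglandin pathway, grouped by role. The filled pink point is ACSL4 (-0.90), the called and only X-linked gene, and the other 27 open points lie on both sides of 0.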

How the data were processed

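RNA-seq of 6 female and 5 male pools was used. An Iso-seq sample of 4-cell embryos of mixed sex was not analysed here. The authors used fastp 0.20.0 for trimming, STAR 2.7.10b for alignment to ARS-UCD 2.0 with at most 3 mismatches and featureCounts for counting, and they deposited raw read counts per gene without normalization. Of 32637 symbols, 30271 matched the RefSeq gene table of that assembly, which gave positions. The strand setting of the counting is not given in the sources used here. Gene sequences and exon lengths were not used here, so levels of different genes are not compared.

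Libraries were grouped by their titles. edgeR 4.0.16 in R 4.3.3 filtered genes with filterByExpr by sex, scaled them with TMM factors and fitted the quasi-likelihood test with the library number as a block, standing in for the collection week of the study's DESeq2 model. Whether it is the week is not known. Standard errors are the log2 fold change over the square root of the F statistic. Single values were tested with exact permutation. Separate cultures are not stated for the pools, so p-values measure the spread between these pools. The libraries of a sex were not copies of one another (log2 CPM across genes, themselves no independent replicates, correlated at 0.861 to 0.963). The alternatives were DESeq2 1.42.0, other blocks, factors, filters and thresholds, and each library left out in turn. Every member was named, and other pathway genes where called or under an unadjusted p of 0.05, ALOX5AP and the summarised synthases, reductases and transporters being exceptions named after their values were seen. Members and lists were chosen with earlier results of these data known.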

Additional observations from a re-analysis of the deposited data

Results flagged for a closer look

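Of 30 groups of libraries (9 listed prostaglandin genes and 6 named pathway genes in each sex), 3 held a library far from the others by Dixon's test, which flags about 5% of groups by chance. PTGES2 was at 26.1 CPM in male replicate 5, with the next male at 9.76 CPM. PTGES3 was at 819 CPM in the same library, with the next male at 988 CPM. ACSL4 was at 737 CPM in female replicate 5, with the next female at 510 CPM.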

How the results depend on the processing

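Of the 7 tested prostaglandin genes, edgeR called 0, DESeq2 called 2 with the library number and 3 without it, and edgeR with no low-count filter called 2. The fits without one library called 0 to 1. The direction of all 7 was the same under every alternative run. Of the other pathway genes, edgeR called 1, with 0 at an FDR of 0.05, with the fold change itself tested and with the title replicate number as the replicate block, 3 by DESeq2 without the library number and 3 with no filter, and 0 to 1 without one library. Over all genes the count of 245 became 611 and 656 by DESeq2 with and without the library number, 743 with no filter, 125 at an FDR of 0.05, 62 with the fold change itself tested, 132 with the title number as a block and 95 (without male replicate 3) to 364 (without male replicate 5) in the fits that left out a library. For PTGS1, the male minus female difference of -0.44 CPM ran from -0.59 to -0.28 CPM without one library. The cause of these moves was not tested.

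Without the library number edgeR called 326 genes and 0 of the 7. The library number did not pair the sexes in all cases: the deviations of same-numbered libraries from their sex means correlated at 0.01, 0.37 and 0.20 for numbers 1 to 3, and at -0.11 to 0.35 over the 5 title numbers. Depth limits PTGS1, PTGER4 and HPGD, which had 74 counts or fewer in each library.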

Other observations

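Some of the genes correlated with the summed level of cell type markers across the 11 libraries, a relation looked for after the values were seen, over 36 pairs of a listed gene and a marker list on log2(CPM + 1). In 5 pairs Pearson's r had an adjusted p under 0.1, and in none of these did Spearman's rho. PTGES correlated with the trophectoderm sum (r = 0.78, permutation p = 0.00475, adjusted p = 0.0427, and rho = 0.79, permutation p = 0.0057, adjusted p = 0.103), with r = 0.88 without female replicate 1 and male replicate 5, the libraries farthest from the median of that sum. PTGES also correlated with the cumulus sum (r = 0.81, permutation p = 0.00275, adjusted p = 0.0427, and rho = 0.82, permutation p = 0.00294, adjusted p = 0.103), with r = 0.87 without female replicate 3 and male replicate 5. SLCO2A1 correlated with the trophectoderm sum (r = 0.83, permutation p = 0.00234, adjusted p = 0.0427, and rho = 0.75, permutation p = 0.0105, adjusted p = 0.126), with r = 0.76 without female replicate 1 and male replicate 5. Its correlation with the cumulus sum (r = 0.77, permutation p = 0.00628, adjusted p = 0.0452, and rho = 0.65, permutation p = 0.0339, adjusted p = 0.204) rests on female replicate 3 and male replicate 5, since r was 0.45 without them. PTGS2 correlated inversely with the inner cell mass sum (r = -0.79, permutation p = 0.0037, adjusted p = 0.0427, and rho = -0.71, permutation p = 0.019, adjusted p = 0.171), with r = -0.78 without female replicate 6 and male replicate 1. Over the 6 females alone, r was 0.86, 0.97, 0.76, 0.57 and -0.75 in the same order. The correlations over 11 libraries include any difference between the sexes. PTGS2 had a lower mean in males, while all 6 inner cell mass genes had a male-against-female log2 fold change above 0, with 0 called. The part of this in r was not tested. No correlation was computed over the 5 males, a number under the minimum of 6 used here.

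Few genes carry these sums. KRT8 and LGALS3 made up 75.3% to 87.7% of the trophectoderm sum, POU5F1 and SPIC 59.3% to 95.2% of the inner cell mass sum, and CYP11A1, a steroid-synthesis enzyme that is not particular to cumulus cells, 31.6% to 94.3% of the cumulus sum, with over 50% of it in 9 of 11 libraries. With those genes left out of the sums, a choice made after the values were seen, 0 of 27 pairs had an adjusted p under 0.1 by either measure. PTGES then correlated with the trophectoderm sum at r = 0.70 (permutation p = 0.0169, adjusted p = 0.183, and rho = 0.65, permutation p = 0.0376, adjusted p = 0.243) and with the cumulus sum at r = 0.69 (permutation p = 0.0183, adjusted p = 0.183, and rho = 0.69, permutation p = 0.0229, adjusted p = 0.243). SLCO2A1 correlated with the trophectoderm sum at r = 0.70 (permutation p = 0.0204, adjusted p = 0.183, and rho = 0.66, permutation p = 0.0311, adjusted p = 0.243), which was 0.20 without female replicate 3 and male replicate 5. For SLCO2A1 and the cumulus sum r was 0.48 (permutation p = 0.139, adjusted p = 0.471, and rho = 0.44, permutation p = 0.184, adjusted p = 0.620), and for PTGS2 and the inner cell mass sum it was -0.07 (permutation p = 0.841, adjusted p = 0.946, and rho = -0.17, permutation p = 0.616, adjusted p = 0.897). The inverse relation of PTGS2 with the inner cell mass sum thus depends on POU5F1 and SPIC. The PTGES relations kept much of their size without those genes, but neither passed the adjusted threshold. With the trophectoderm sum, r was 0.56 without female replicate 3 and male replicate 5. With the cumulus sum, r was 0.64 without female replicate 1 and male replicate 3. The reduced trophectoderm sum again rested on few genes, with KRT18 at 3836 CPM and DAB2 at 1321 CPM of 5545 CPM in male replicate 5. None of the relations is shown here for the marker lists as wholes.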
